A study of Mus musculus with 8 samples.

Results

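The genes of peroxisomes and of fatty acid oxidation were examined in isolated pancreatic islets of aged mice labelled as beta cell knockouts of Sox9 and of their controls. They were taken by gene symbol: the Pex, Acox, Abcd, Acsl, Cpt1, Cpt2, Acad, Hadh and Eci (1 to 3) families, together with Ech1, Ehhadh, Hsd17b4 and Ppara. In all, 52 of the 15985 gene symbols of the table met this rule. Acox2, an oxidase of bile acid intermediates in liver, had no line in the table. By textbook location 24 of the 52 were assigned to peroxisomes (16 genes of biogenesis, 8 of oxidation and transport), 16 to mitochondria and 3 to both (Ech1, Eci2 and Acad11). The other 9 were 5 long-chain acyl-CoA synthetases, the regulator Ppara, and Abcd4, Cpt1c and Pex5l, which share a family name but act elsewhere. All 52 passed the minimum level, a normalized value above 1 in at least 4 libraries.

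RNA was sequenced from islets of 8 mice aged 13 to 16 months, of mixed strain. The 4 animals labelled KO were Ins-Cre;Sox9fl/fl, in which Cre recombinase under an insulin promoter is meant to remove exons 2 and 3 of Sox9, a transcription factor, from insulin-producing cells from embryonic life onwards. The 4 animals labelled WT carried no Cre: replicate 1 was Sox9fl/fl, replicate 2 Sox9fl/+, replicate 3 Sox9+/+ and replicate 4 Sox9+/fl. Floxed alleles are therefore present in both groups, and effects of Cre itself and of losing Sox9 cannot be told apart. The knockout is limited to cells with insulin promoter activity, while whole islets also hold alpha, delta, endothelial and other cells. Fewer cells of a type and less RNA per cell cannot be told apart in such bulk samples.

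Peroxisomes are single-membrane organelles that shorten very long-chain and branched fatty acids and make and remove hydrogen peroxide. Peroxins, the products of Pex genes, place membrane proteins, carry enzymes through the membrane and divide the organelle, and the first peroxisomal oxidation step passes electrons directly to oxygen. Mitochondria take long-chain fatty acids through the carnitine shuttle and oxidize them by chain-length-specific acyl-CoA dehydrogenases and the trifunctional protein, feeding the respiratory chain. In beta cells, fatty acid oxidation competes with the use of glucose, and Hadh has a further role: human loss of HADH causes excessive insulin secretion.

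The values are normalized read estimates of a gene, not divided by gene length, so they were compared between libraries as they are and between genes only per kb of annotated exon. That length joins the exons of all annotated transcripts and can exceed that of the expressed RNA, so rankings between genes depend on the annotation. Estimated depth was 11 to 19.1 M reads in KO libraries and 13.1 to 26.2 M in WT libraries. A single read was worth 0.657 to 1.37 in these units. Sox9 itself did not separate the groups (36.6, 16.4, 20.6 and 11.7 in KO libraries, 23.3, 37.3, 13.4 and 13.3 in WT libraries). This leaves the genotype labels unchecked by this gene, and the wording "labelled KO" is kept for that reason. The study reports lower Sox9 by quantitative PCR in knockout islets and, by in situ hybridization, its loss from insulin-positive cells but not from ducts. Duct markers, which include Sox9, summed to 7024 to 9639 in KO and 7446 to 10540 in WT libraries, and their part was not tested. WT replicate 3 had 22.6 of the Y-linked Ddx3y, against 1236 to 1837 in the other 7 libraries, and so stood apart. The study describes the sequenced animals as male. Acinar markers, the enzyme genes of the surrounding exocrine tissue, summed to 120049 to 324717 in KO libraries and 45798 to 229357 in WT libraries (29 of 30 markers had a line, and 28 of the 29 had a positive fold change). All 12 beta cell markers were present, summing to 4011707 to 6413150 in KO and 5009649 to 6904061 in WT libraries. This sum is mainly insulin RNA, since Ins2 alone made up 20.5% to 25.3% of all values in KO and 22.9% to 28.6% in WT libraries. Of the 12 markers, 4 had a positive and 8 a negative fold change. Of the 7 liver and 8 fat cell markers, Apoa1, Apob, Cyp2e1 and Cps1, and Adipoq, Plin1, Lep, Retn and Adrb3 had no line. The 3 liver markers with a line summed to 408 to 604 in KO and 360 to 485 in WT libraries. The 3 fat cell markers with a line summed to 1143 to 1774 in KO and 738 to 1414 in WT libraries. Immediate early genes, which respond within minutes to handling and other stimuli, had a mean score of 0.86 ± 0.42 in KO and -0.86 ± 0.83 in WT libraries (SD, n = 4 each). With the acinar score as a covariate, and likewise without WT replicate 3, 0 members passed the test described next. As 0 passed in the main fit too, these counts cannot show the part of either. With that covariate 5 of the 52 members, in place of 1, had an unadjusted p below 0.05 (limma). The share of all genes at that level was not taken in this fit, so the count is not a result about the members. The smallest adjusted p with the covariate was 0.409 (limma), for Cpt1c. The part of the other differences was not tested.

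The first comparison asked whether any peroxisomal or oxidation gene differed between the groups. No member passed. Of the 52 members 0 had an adjusted p below 0.05 (limma, Benjamini-Hochberg over 15960 genes), and the smallest adjusted p was 0.241, for Pex5l. Over all genes tested, 9 passed, which is 0.0564% (0.0376% higher and 0.0188% lower in KO). The study, with a different test of gene totals (sleuth), reports many more genes below 0.05, so this count depends on the method. At an unadjusted p below 0.05 there was 1 member, against 10.7% of all genes. The 4 values of the groups lay apart without overlap in 2 members, Pex5l lower and Hadha higher in KO, against 6.35% of all genes (2.67% higher and 3.68% lower in KO). Fold changes were positive in 22 members and negative in 30, with a median log2 fold change of -0.01, against -0.03 over all genes. This split was not stable: 29 of 52 were positive after median-ratio rescaling, 28 after rescaling by sums and 29 without KO replicate 1. In the other direction, 18 of 52 were positive with the acinar score as a covariate and 18 without KO replicate 3.

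The intervals set what these libraries could show. The 95% intervals of 51 of the 52 members included 0, and they reached a median of 0.33 on the log2 scale to each side (0.20 to 1.26). In 29 members the whole interval lay within 0.5 of 0, and in 48 within 1. Only Eci3 (0.57) and Ppara (-0.52) had a fold change beyond 0.5 in size, a size that 13.9% of all genes passed, and both have low values. A fold change beyond 1 was seen in 0 members, against 3.34% of all genes. The members varied less within groups than the average gene: their median within-group SD was 0.188 on the log2 scale, against 0.267 over all genes and 0.215 over 4958 genes of similar level. In simulated libraries of this size, 0% of the genes given a log2 change of 0.3 and 60% of those given a change of 1 passed limma's threshold. At a change of 1, 6.96% of the genes that passed were unchanged ones. The 200 changed genes were drawn from all genes with their own spreads, so these shares are not rates for the members. In that mix of genes a difference of about 0.3 was not detectable at this sample size.

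**Figure D1:**
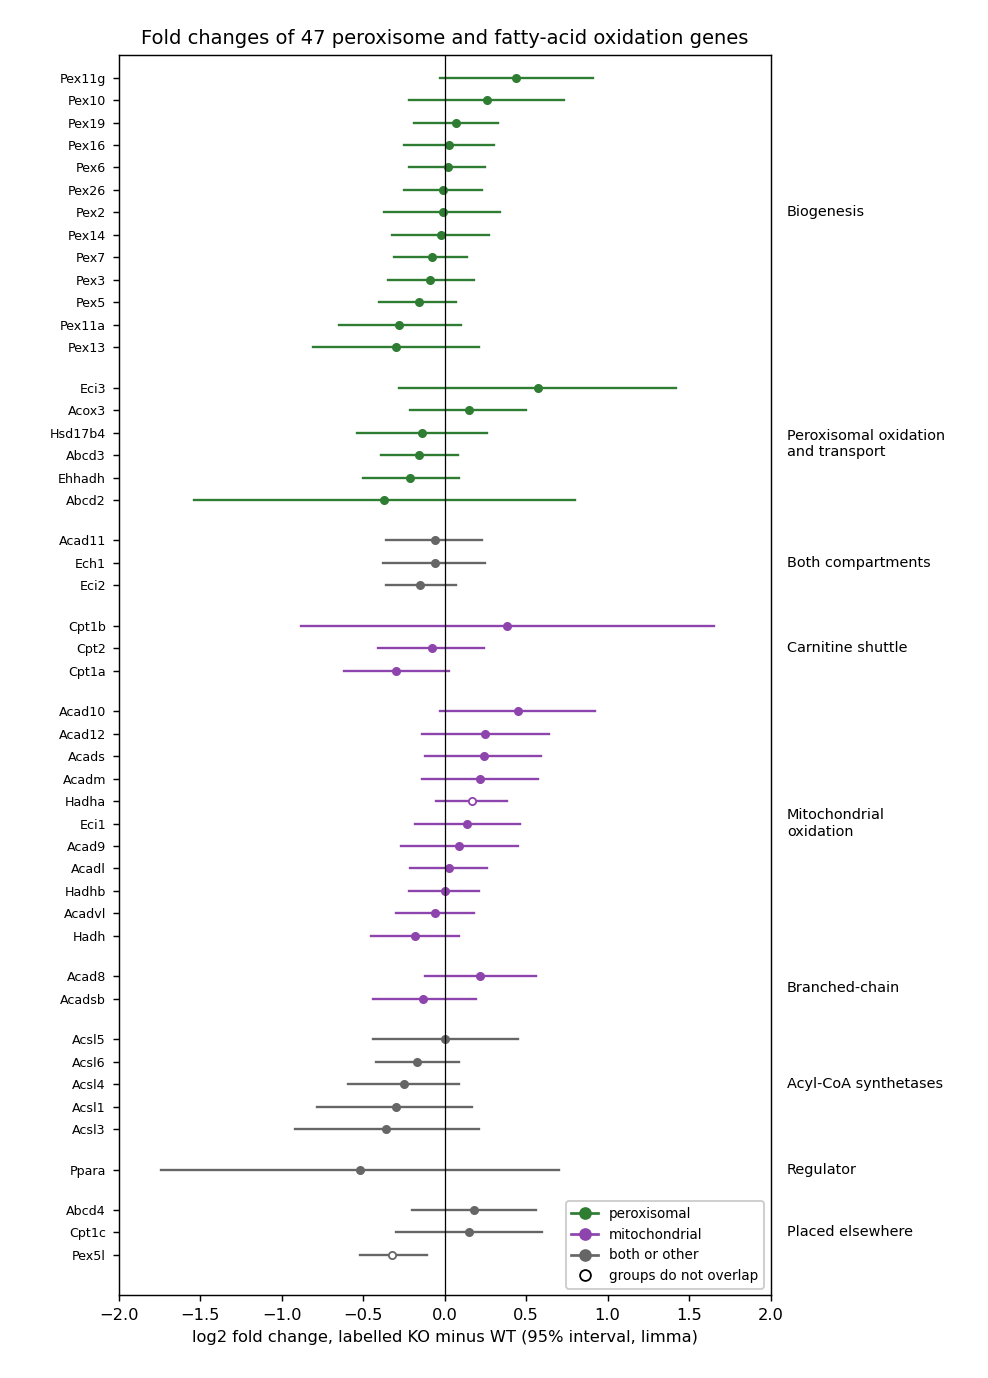
Log2 fold change of 47 of the 52 members, labelled KO minus WT, with its 95% interval from limma (n = 4 each), ordered by role. Green marks peroxisomal, purple mitochondrial and grey other members, and open circles mark Pex5l and Hadha, whose groups do not overlap. All intervals shown but that of Pex5l include 0.

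Next, peroxisomal members were compared with mitochondrial ones. The 24 peroxisomal members had a median log2 fold change of -0.01, with 9 positive and 15 negative. After median-ratio rescaling it was 0.0242, where the median of all genes was 0.00375 in place of -0.0333, so that both shifted alike. The peroxisomal median was -0.0674 with the acinar score as a covariate. With single libraries left out it was -0.0775 (without KO replicate 3) to 0.0334 (without KO replicate 1). The 16 mitochondrial members had a median of 0.11, with 10 positive and 6 negative, which was 0.04 without WT replicate 3, the library low in Y-linked RNA, and 0.03 when Ech1, Eci2 and Acad11 were counted as mitochondrial. Over all genes, 44.9% of fold changes were positive. None of the 24 and none of the 16 passed the test, and at an unadjusted p below 0.05 there were also 0 in either compartment.

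A score was taken for each library as the mean centred log2 value of the members of a compartment. The peroxisomal score was -0.10, -0.01, 0.16 and -0.06 in KO libraries and 0.09, -0.05, -0.02 and -0.01 in WT libraries. The mitochondrial score was 0.02, -0.01, 0.13 and 0.04 in KO libraries and -0.07, 0.00, -0.02 and -0.09 in WT libraries. Both scores were highest in KO replicate 3, and the groups overlapped in both. The peroxisomal minus the mitochondrial score averaged -0.05 ± 0.07 in KO and 0.05 ± 0.09 in WT libraries (SD, n = 4 each), a difference of -0.09 on the log2 scale that is about as large as the spread between libraries, with KO replicates 2 and 3 within the WT range. No test was made of a score over members.

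**Figure D2:**
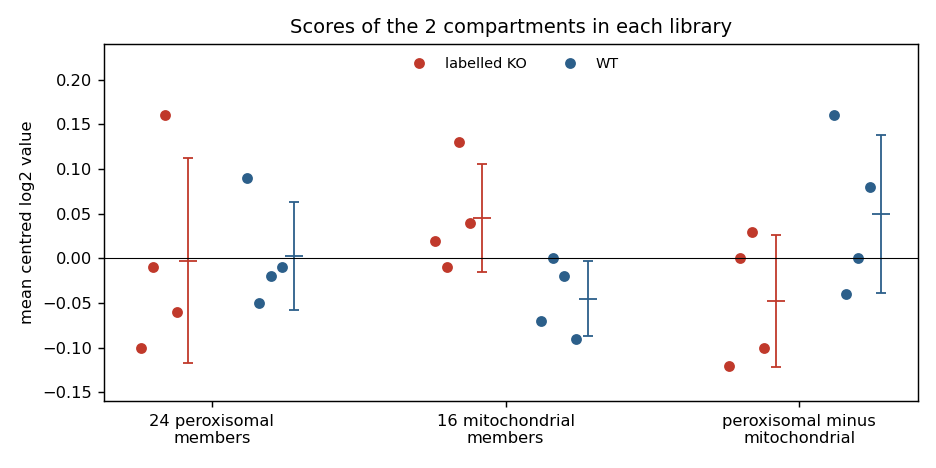
Mean centred log2 value of the 24 peroxisomal members, of the 16 mitochondrial members, and their difference, in each library. Points are libraries, labelled KO (red) left of WT (blue), and bars give mean ± SD (n = 4). The groups overlap in all 3 measures.

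Genes of peroxisome biogenesis, 16 members, had a median log2 fold change of -0.01, with 7 positive and 9 negative and 0 past the test. The receptors that carry matrix proteins to the organelle are PEX5, which binds the C-terminal targeting signal, and PEX7, which binds an N-terminal one. Pex5 had values of 871, 952, 861 and 942 in KO libraries and 1118, 867, 1027 and 1065 in WT libraries. The fold change was -0.16 on the log2 scale (SE 0.11), and WT replicate 2 lay among the KO values. Pex7 averaged 1320 ± 96.9 in KO and 1399 ± 99.7 in WT libraries (SD, n = 4 each). Of the docking proteins, Pex14 had a log2 fold change of -0.02 (SE 0.13), and Pex13, one of the lowest peroxins at 7.38 per kb in KO and 9.03 per kb in WT libraries, had -0.30 (SE 0.23).

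The ring finger peroxins Pex2 and Pex10, which ubiquitinate the receptors for recycling, had log2 fold changes of -0.01 and 0.26. Pex2 was the most abundant peroxin per exon length, at 327 per kb in KO and 329 per kb in WT libraries. This rank rests on annotated lengths of 2.27 kb for Pex2 and 12.1 kb for Pex7. Undivided, Pex2 averaged 742 in KO and 746 in WT libraries, below Pex7 at 1320 in KO and 1399 in WT libraries. The AAA ATPase Pex6, which helps extract the receptor from the membrane, and its anchor Pex26 had 0.02 and -0.01. The early factors of membrane assembly, Pex3, Pex16 and Pex19, had -0.09, 0.03 and 0.07. Pex19, the chaperone of membrane proteins, had 241, 259, 267 and 273 in KO libraries and 262, 221, 246 and 263 in WT libraries, and its small fold change turned to -0.01 with the acinar score in the fit. Over these receptors, docking proteins, ring finger peroxins, ATPase and membrane factors the fold changes of the genes named lay between -0.30 and 0.26, and each interval included 0.

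Pex11a and Pex11g, of the family that elongates the membrane before division, had fold changes in opposite directions, with 0 past the test. Pex11a had values of 206, 266, 245 and 256 in KO libraries and 333, 306, 352 and 207 in WT libraries. Its log2 fold change was -0.28 (SE 0.17, limma adjusted p = 0.601). WT replicate 4 lay within the KO range, and without it the fold change was -0.44 and the adjusted p 0.239. Without WT replicate 3, the highest library, they were -0.19 and 0.787. Pex11g had values of 102, 92.5, 135 and 113 in KO libraries and 71.8, 112, 60.6 and 86.6 in WT libraries. It had a log2 fold change of 0.44 (SE 0.22, limma adjusted p = 0.505), with WT replicate 2 within the KO range, and adjusted p-values of 0.297 to 0.715 over the alternatives run.

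The 8 peroxisomal members of transport and oxidation had a median log2 fold change of -0.08, with 2 positive and 6 negative and 0 past the test. Transporters of the ABCD family bring fatty acyl-CoA into the organelle. Abcd3 had values of 2400, 2607, 2909 and 2477 in KO libraries and 3172, 2577, 2977 and 2871 in WT libraries, with a log2 fold change of -0.16 (SE 0.11). Abcd2 was listed at 2.61 to 6.76 in KO and 3.24 to 11.7 in WT libraries, a few reads each.

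Acyl-CoA oxidases catalyse the first step. Acox3, the oxidase of branched chains, had a log2 fold change of 0.15 (SE 0.16), with values of 288, 461, 383 and 419 in KO libraries and 342, 327, 299 and 424 in WT libraries. Ehhadh and Hsd17b4 encode the bifunctional enzymes of the next steps. Ehhadh had 275, 317, 301 and 298 in KO libraries and 429, 294, 350.5 and 313 in WT libraries, with a log2 fold change of -0.21 (SE 0.14). Hsd17b4 averaged 77.5 ± 13.1 in KO and 84.7 ± 6.40 in WT libraries (log2 fold change -0.14, SE 0.18). WT replicate 1 held the highest Ehhadh value, and without it the fold change was -0.10. That of Hsd17b4 was -0.04 without KO replicate 1 and -0.24 without KO replicate 3, and the groups overlapped in both genes.

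Eci3, an enoyl-CoA isomerase described in mouse, had the highest fold change of all members at low values: 24.3, 12, 27.0 and 19.7 in KO libraries and 17.3, 13.2, 7.67 and 17.4 in WT libraries. The log2 fold change was 0.57 (SE 0.39, limma adjusted p = 0.643). Eci3 lies 13.9 kb from its paralog Eci2 on chromosome 13, and whether they share reads was not tested. Eci2, found in both compartments, had 704, 710, 802 and 794 in KO libraries and 863, 800, 813 and 854 in WT libraries, a log2 fold change of -0.15 (SE 0.10). Its groups overlapped by a narrow margin, since the highest KO value of 802 exceeded the lowest WT value of 800. Ech1 and Acad11, the other members of both compartments, had -0.06 each.

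**Figure D3:**
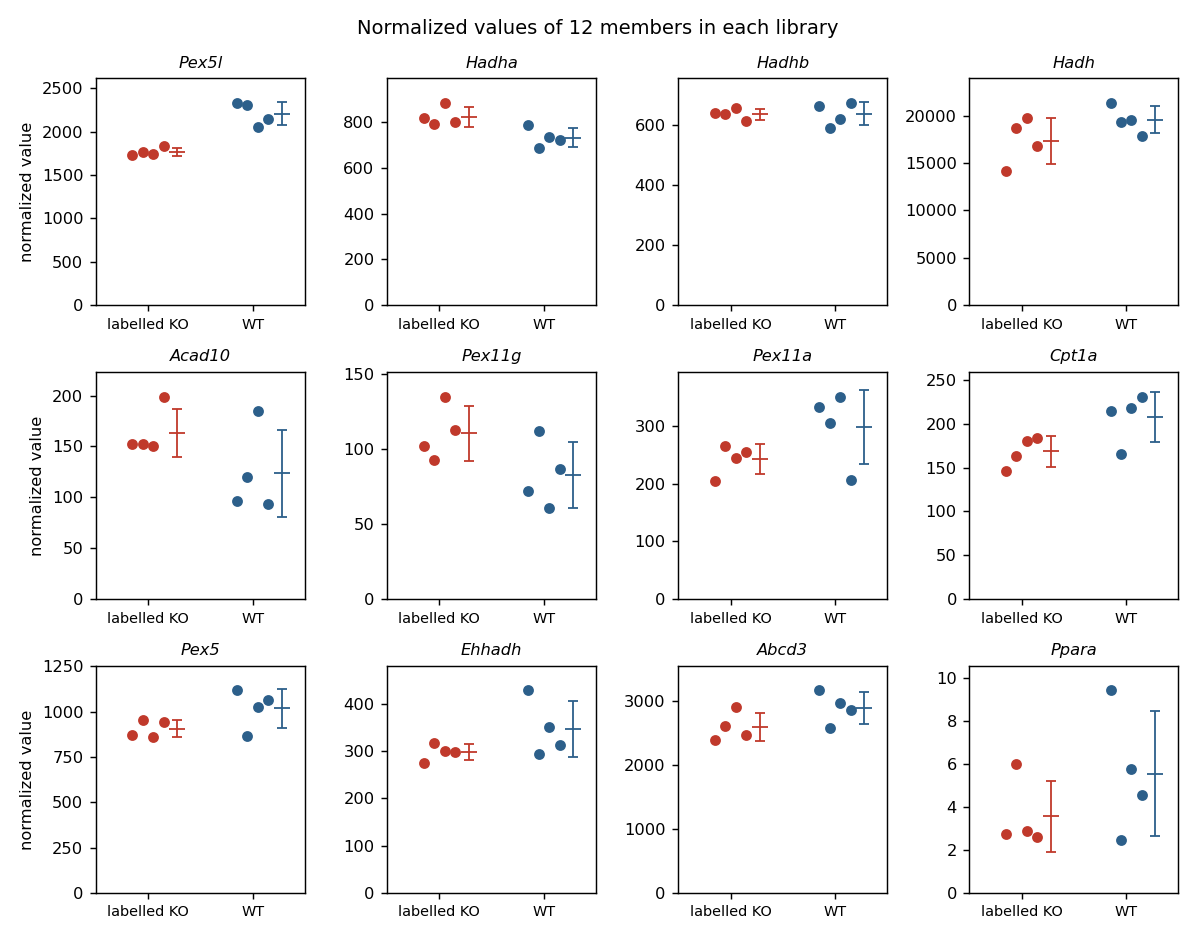
Normalized values of 12 members in each library, each panel on its own axis from 0. Points are libraries, labelled KO (red) left of WT (blue), and bars give mean ± SD (n = 4). Pex5l (KO 1729 to 1837, WT 2054 to 2334) and Hadha (KO 789 to 884, WT 686 to 788) are the panels without overlap.

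In the carnitine shuttle, CPT1 enzymes load long-chain fatty acids onto carnitine at the outer membrane, the step blocked by malonyl-CoA, and CPT2 releases them inside. Cpt1a had values of 146, 163, 180 and 184 in KO libraries and 215, 166, 218 and 231 in WT libraries. The log2 fold change was -0.30 (SE 0.15, limma adjusted p = 0.512), and WT replicate 2 lay within the KO range. Without that library the fold change was -0.40 and the adjusted p 0.316, and without KO replicate 1 they were -0.23 and 0.739. Cpt1b, the muscle form, had 31.5, 12.1, 19.2 and 12.5 in KO libraries and 5.57, 44.6, 13.1 and 9.12 in WT libraries, the widest scatter of any member, and it shares exon sequence with the gene Gm44502. Cpt2 averaged 128 ± 9.79 in KO and 136 ± 17.3 in WT libraries. Cpt1c, the form of the endoplasmic reticulum of neurons, made up, of the 3 CPT1 genes per exon length, 53.2 ± 5.25% in KO and 46.5 ± 5.68% in WT libraries, while Cpt1a made up 37.2 ± 2.87% in KO and 45.5 ± 11.8% in WT libraries. Per exon length Cpt1c exceeded Cpt1a in 4 of 4 KO and 2 of 4 WT libraries. Undivided, Cpt1c lay below Cpt1a in KO replicate 3 (161 against 180) and WT replicate 3 (175 against 218), so this order depends on the annotated lengths.

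The 11 members of mitochondrial beta-oxidation had a median log2 fold change of 0.14, with 8 positive and 3 negative and 0 past the test. Short-, medium-, long- and very long-chain acyl-CoA dehydrogenases are encoded by Acads, Acadm, Acadl and Acadvl. Acadm had 146, 123, 141 and 120 in KO libraries and 97.9, 110, 109 and 141 in WT libraries, a log2 fold change of 0.22 (SE 0.16), with WT replicate 4 within the KO range. Acads had 0.24 (SE 0.16), Acadl 0.03 (SE 0.11) and Acadvl -0.06 (SE 0.11). Eci1, the isomerase of unsaturated chains, had 0.14 (SE 0.15), and Acad9, also an assembly factor of respiratory complex I, had 0.09 (SE 0.16). Per exon length Acadl was the most abundant of the 4, at 48.3 ± 1.52% of their sum in KO and 48.8 ± 1.87% in WT libraries, followed by Acadvl at 29.5 ± 1.33% in KO and 31.7 ± 1.52% in WT libraries.

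Acad10 and Acad12, acyl-CoA dehydrogenases of less settled substrates, lie 2.1 kb apart on chromosome 5. Acad10 had values of 152, 152, 150 and 199 in KO libraries and 96.2, 119.9, 185 and 92.9 in WT libraries. The log2 fold change was 0.45 (SE 0.22, limma adjusted p = 0.499). WT replicate 3, the library low in Y-linked RNA, was the one WT value above 3 of the KO values, and without it the fold change was 0.66 and the adjusted p 0.273. Without WT replicate 4 they were 0.33 and 0.594. Acad12 had a log2 fold change of 0.25 (SE 0.18). As paralogs they may share reads, which was not tested. The branched-chain enzymes Acad8 and Acadsb, which act in valine and isoleucine breakdown, had 0.22 (SE 0.16) and -0.13 (SE 0.14).

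The last steps of the mitochondrial spiral gave the only mitochondrial member without overlap. Hadha encodes the alpha subunit of the trifunctional protein, and had values of 816, 789, 884 and 798 in KO libraries and 788, 686, 733 and 721 in WT libraries. The lowest KO value, 789, stood just above the highest WT value, 788. The log2 fold change was 0.17 (SE 0.10, interval -0.05 to 0.38, limma adjusted p = 0.584), and adjusted p-values lay between 0.395 and 0.85 over the alternatives run. Its fold change was 0.09 with the acinar score in the fit. Hadhb, the beta subunit of the same complex, had 641, 637, 658 and 614 in KO libraries and 665, 592, 623 and 676 in WT libraries, a log2 fold change of 0.00 (SE 0.10). The difference between the fold changes of the subunits was not tested.

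Hadha (ENSMUSG00000025745, chromosome 5, 30118304 to 30155162, minus strand) and Hadhb (ENSMUSG00000059447, chromosome 5, 30155248 to 30184593, plus strand) are divergent neighbours in GENCODE on GRCm38. The 85 bases between their GENCODE starts, with a GC content of 69.4%, are shown because both genes read away from this stretch. The letters come from the RefSeq promoter table (GRCm38.p6), in plus-strand orientation, and the RefSeq starts of the genes differ from those of GENCODE and lie outside the stretch:
Hadha-Hadhb, chr5:30155163-30155247: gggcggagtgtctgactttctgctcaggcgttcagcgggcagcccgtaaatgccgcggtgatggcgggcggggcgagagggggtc

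Hadh, the short-chain 3-hydroxyacyl-CoA dehydrogenase, was by far the most abundant member. It had values of 14113, 18652, 19725 and 16775 in KO libraries and 21363, 19342, 19572 and 17891 in WT libraries, in the 99.7th percentile of all genes. The log2 fold change was -0.18 (SE 0.12, limma adjusted p = 0.637), and 2 of the 4 KO libraries lay within the WT range. Without KO replicate 1, the lowest library, the fold change was -0.09. Per exon length Hadh had 3479 in KO and 3926 in WT libraries, compared with 394 in KO and 440 in WT for Abcd3. Of Hadh, Hadha and Hadhb together it made up 94.7 ± 0.715% in KO and 95.6 ± 0.331% in WT libraries. Hadha was 2.60 ± 0.346% of this sum in KO and 2.04 ± 0.103% in WT libraries, without overlap of the groups, while the shares of Hadh and of Hadhb overlapped. As Hadh makes up nearly all of the sum, the share of Hadha restates the values of Hadha and Hadh and is not a further result.

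**Figure D4:**
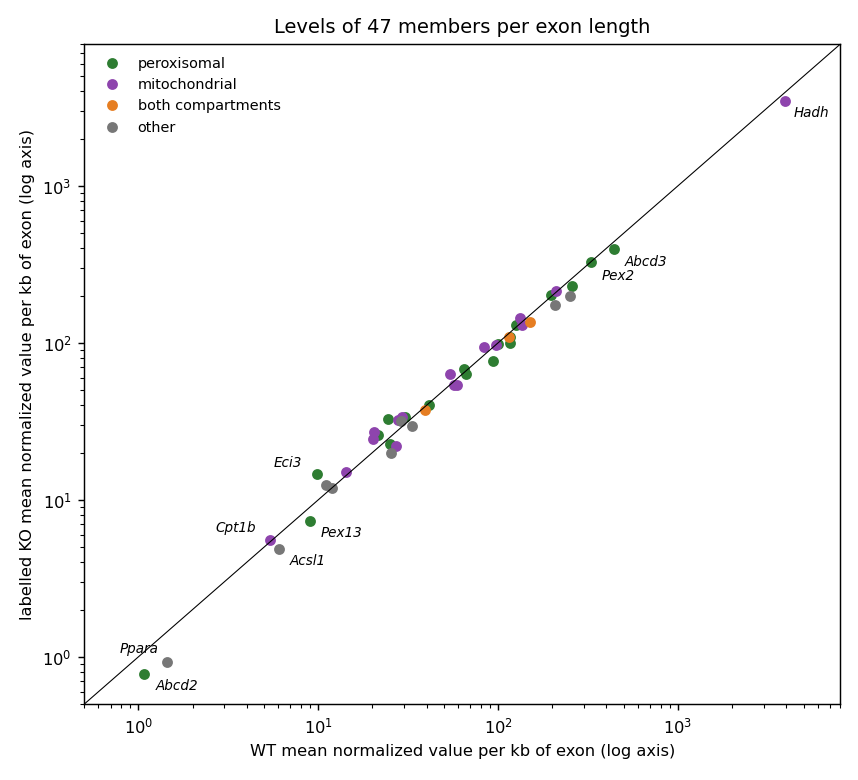
Mean normalized value per kb of annotated exon in libraries labelled KO (vertical axis) against WT (horizontal axis) for 47 of the 52 members, on log axes, with the line of equality (n = 4 each). Hadh stands apart at the top (3479 in KO, 3926 in WT), and Abcd2 (0.781 in KO, 1.08 in WT) and Ppara (0.926 in KO, 1.44 in WT) at the bottom.

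Long-chain acyl-CoA synthetases activate fatty acids before either pathway. Their 5 members had a median log2 fold change of -0.25, with 1 positive and 4 negative and 0 past the test. Acsl4, which prefers arachidonic acid, made up 72.2 ± 2.68% of the family per exon length in KO and 72.9 ± 3.97% in WT libraries. It had values of 843, 1103, 880 and 911 in KO libraries and 1436, 864, 1010 and 1196 in WT libraries (log2 fold change -0.25, SE 0.15, limma adjusted p = 0.601). WT replicates 2 and 3 lay within the KO range. The fold change of Acsl4 was -0.13 without WT replicate 1 and -0.42 with the acinar score in the fit. Acsl1, Acsl3, Acsl5 and Acsl6 had -0.30, -0.36, 0.00 and -0.17, with standard errors of 0.12 to 0.26.

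Pex5l, also called TRIP8b, is a relative of Pex5 known in neurons as an auxiliary subunit of HCN channels and not as a peroxin. It was the member with the smallest p. Pex5l (ENSMUSG00000027674, chromosome 3, 32949408 to 33143247 on GRCm38, minus strand) had values of 1729, 1769, 1741 and 1837 in KO libraries and 2334, 2307, 2054 and 2141 in WT libraries. All 4 KO values lay below all 4 WT values. The log2 fold change was -0.32 (SE 0.09, interval -0.52 to -0.11), with an unadjusted p of 0.00537 and a limma adjusted p of 0.241, so that it did not pass over all genes. Over the alternatives run, its fold change lay between -0.35 and -0.28 and its adjusted p between 0.209 and 0.529. Alpha cell markers (9 of 9 had a line, 8 with a negative fold change) had mean scores of -0.16 ± 0.20 in KO and 0.16 ± 0.17 in WT libraries (SD, n = 4 each), with summed values of 252989 to 364582 in KO and 300390 to 521662 in WT libraries, and their part in the values of Pex5l was not tested.

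The other 2 members that act elsewhere, Cpt1c and the lysosomal cobalamin transporter gene Abcd4, had log2 fold changes of 0.15 (SE 0.21) and 0.18 (SE 0.17), with overlap of the groups in both. With the acinar score as a covariate Cpt1c had the smallest adjusted p of the members (limma, 0.409).

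Ppara, the nuclear receptor that induces many of these genes in liver, was the second lowest member per exon length. It had values of 2.72, 6.0, 2.88 and 2.61 in KO libraries and 9.42, 2.46, 5.77 and 4.53 in WT libraries. At a few reads in most libraries, its log2 fold change of -0.52 (SE 0.56, interval -1.74 to 0.70, limma adjusted p = 0.782) cannot be told from 0, and it was -0.24 without WT replicate 1 and -0.82 without WT replicate 2. Its binding element, a pair of AGGTCA repeats with 1 free base between them, was searched on both strands. It was in 0 of the 39 member promoters that could be matched by symbol in the RefSeq table (250 bases before to 50 after the start), against 0.0481% of 27025 genes. The exact element was in only 13 of those genes, so 0 of 39 was nearly fixed in advance and cannot show whether members have such elements. Inexact copies and sites outside this window were not searched. The single repeat AGGTCA, on either strand and contained in that element, was in 6 of the 39 (15.4%), against 18.1% of all promoters. The SOX core AACAAT, on either strand, was in 2 (Acsl1 and Pex14, 5.13%), against 12.2%. A match describes letters and not a bound site. The 3 stretches that follow show the repeat, in capitals, before the starts of Pex11g, whose values are given above, and of Cpt1c and Acadvl, read 5′ to 3′ on each gene's own strand:
Pex11g, chr8:3467801-3467836, minus strand: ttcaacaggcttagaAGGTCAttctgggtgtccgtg
Cpt1c, chr7:44974977-44975012, minus strand: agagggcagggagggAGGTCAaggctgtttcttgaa
Acadvl, chr11:70015495-70015530, minus strand: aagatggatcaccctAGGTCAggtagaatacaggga

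The wider pathway was followed in lists of genes outside the rule. None of their members passed over all genes. The 34 other peroxisomal genes tested had a median log2 fold change of -0.03, with 16 positive and 18 negative, 3 at an unadjusted p below 0.05 and 4 without overlap, against 10.7% and 6.35% of all genes. Among them Idh1, an NADP-dependent isocitrate dehydrogenase of cytosol and peroxisome, had 118, 100.2, 96.0 and 108 in KO libraries and 170.1, 139, 183 and 141 in WT libraries. All KO values of Idh1 lay below all WT values, with a log2 fold change of -0.58 (SE 0.16, limma adjusted p = 0.202). Nudt7, a peroxisomal CoA diphosphatase, had 207, 259, 324 and 249 in KO libraries and 178, 223, 182 and 184 in WT libraries. Its log2 fold change was 0.42 (SE 0.15, limma adjusted p = 0.35), with WT replicate 2 within the KO range.

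The 4 genes of peroxisome division that are shared with mitochondria had a median of -0.14. Of these Mff, a membrane receptor for the dynamin Dnm1l, had a log2 fold change of -0.24 (SE 0.12), or -0.13 without KO replicate 4, and Gdap1 had -0.14 (SE 0.11), or -0.08 without KO replicate 1. The 15 other mitochondrial genes of fatty acid oxidation and ketone metabolism had a median of -0.03 (7 positive, 8 negative, 0 at an unadjusted p below 0.05). Bdh1, an enzyme of ketone body use, had -0.20 (SE 0.18), which was -0.04 without KO replicate 1 and -0.33 without KO replicate 3. In malonyl-CoA and fatty acid synthesis, 4 genes with a median of -0.19, Fasn had -0.32 (SE 0.16, limma adjusted p = 0.503) and Acacb, whose product malonyl-CoA inhibits CPT1, had 0.59 (SE 0.34), which was 0.31 without WT replicate 3 and 0.26 with the acinar score in the fit.

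Among the genes named from these lists, the coactivators of nuclear receptors had the largest fold changes, in opposite directions. Ppargc1b (PGC-1 beta) had values of 54.8, 74.1, 59.2 and 89.1 in KO libraries and 30.3, 32.6, 43.8 and 31.3 in WT libraries. All 4 KO values were above all 4 WT values, with a log2 fold change of 0.98 (SE 0.24, interval 0.46 to 1.51, limma adjusted p = 0.16). Ppargc1a (PGC-1 alpha), a driver of mitochondrial oxidation genes, had 249, 143, 82.8 and 63.8 in KO libraries and 329.7, 249, 331 and 235 in WT libraries. Its log2 fold change was -1.27 (SE 0.38, limma adjusted p = 0.286). KO replicate 1 lay within the WT range, and without it the fold change was -1.63 and the adjusted p 0.0865. Without KO replicate 4, the lowest library, they were -0.98 and 0.422. The list of PPAR, RXR and coactivator genes, 9 tested, had a median of -0.22, with 3 positive and 6 negative. At an unadjusted p below 0.05 (limma) there were 3 of the 9, against 10.7% of all genes. These include Ppargc1b and Ppargc1a, named above for having the smallest p of this list, so the count adds little to their values.

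Targets of PPARA outside the rule, of which 8 of 14 had a line and were tested, had a median of 0.42, with 7 positive and 1 negative, and 0 passed or had an unadjusted p below 0.05. Their intervals were wide, with a median of 0.96 to each side. Pdk4, the kinase that turns off pyruvate dehydrogenase when fat is burned, had 36.6, 71.1, 44.6 and 47.9 in KO libraries and 35.9, 44.7, 31.5 and 28.3 in WT libraries (log2 fold change 0.48, SE 0.27, limma adjusted p = 0.561). Without KO replicate 2 it was 0.30. Acot1, a cytosolic acyl-CoA thioesterase, had 0.39 (SE 0.36), and 0.21 to 0.60 with single KO libraries left out. Both genes overlapped between groups.

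**Figure D5:**
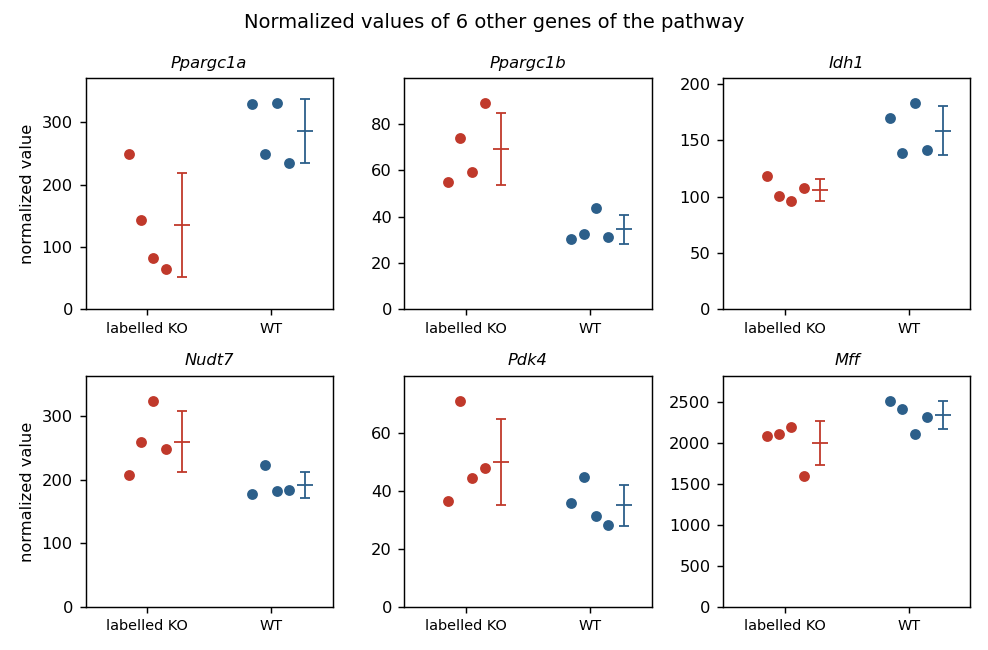
Normalized values of 6 genes of the wider pathway in each library, each panel on its own axis from 0. Points are libraries, labelled KO (red) left of WT (blue), and bars give mean ± SD (n = 4). Ppargc1b (KO 54.8 to 89.1, WT 30.3 to 43.8) and Idh1 (KO 96.0 to 118, WT 139 to 183) show no overlap, and none of the 6 passed the test.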

How the data were processed

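Groups of the 8 islet libraries were taken from the labels. The authors trimmed reads with cutadapt (1.13), quantified them with kallisto (0.46.1) against Ensembl GRCm38 after a stranded KAPA library preparation, and summed transcripts to genes in sleuth. Each deposited library column holds a signal, the estimated reads of a gene divided by a size factor. The deposited mean is on the natural log scale: the mean natural log of the signal plus 0.5 equalled it within 1e-06 for 97.3% of 16208 identifiers. The other deposited columns hold the authors' own comparison, with effect sizes, p-values and q-values of genes and isoforms, and were not used. Lines of a symbol with several identifiers were summed.

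Values were transformed as log2(value + 0.5), so that fold changes of low genes are understated. The 15960 genes above a value of 1 in 4 or more libraries were compared by limma (3.58.1, R 4.3.3) with a trended robust prior and group as the single term, two-sided, with Benjamini-Hochberg adjustment at 0.05. Count models were not used, since whole reads could not be recovered for all genes (60.4% to 66.3% of low values of 2247 single-transcript genes were whole within 0.05 reads). Depth was estimated from the step between such low values. The study describes 4 animals a group, 1 per library. Since kallisto divides shared reads, paralogs and overlapping genes are less certain.

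Members, lists and tests were chosen with earlier results of these data known. Named are members past the threshold or without overlap, the 12 members with the smallest p, 12 anchors of the pathway (such as Ppara, Pex5 and Cpt1a), and the 2 genes with the smallest p of each further list. Some genes that the rule covers are not reported here, while counts and medians include them. Members named beyond these, given to account for each role, and the family shares and the printed stretches were chosen after their values were seen. limma was tested on simulated data (15960 genes, 4 against 4). The C-terminal targeting signals of the member proteins were not analysed here. Alternatives were other minimum levels, pseudocounts, scalings, terms and priors, and each library left out.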

Additional observations from a re-analysis of the deposited data

Results flagged for a closer look

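A single library stood apart from the rest of its group in 2 of the members, where chance alone flags about 1 in 20 groups. Acad10 in KO replicate 4 was 199, with its nearest neighbour in the group at 152 (Dixon ratio 0.942, above the 95% critical value for 4 samples). Ppara in KO replicate 2 was 6.0, with its nearest neighbour at 2.88 (Dixon ratio 0.887), at a level of a few reads.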

How the results depend on the processing

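The number of members past the threshold was 0 under every alternative run, with 1 to 6 members at an unadjusted p below 0.05 (6 without WT replicate 2). The shares of all genes at that level were not taken for the alternatives, so this range is not a result about the members. The number of all genes past it, 9, was 14 with a pseudocount of 1 and with 1 row per Ensembl identifier, 4 after rescaling by sums, 3 with the acinar score as covariate and 1 with a constant prior. With each library left out it ranged from 1 to 58, the highest without WT replicate 2, and was 1 without WT replicate 1 or without KO replicate 2, 3 or 4, and 3 without WT replicate 4. The cause was not tested. The mitochondrial median of 0.114 was 0.0257 with Ech1, Eci2 and Acad11 counted as mitochondrial, and 0.0358 to 0.144 with libraries left out, lowest without WT replicate 3. The difference of the scores lay between -0.151 and -0.0573. Of the 18 members recomputed under the alternatives, which leave out others described above such as Hadhb, Eci3 and Acox3, 1 reversed: Pex19 was -0.00601 with the acinar covariate. With that covariate Ppara was -0.82, Abcd3 -0.25, Pex5 -0.25, Ehhadh -0.32, Cpt2 -0.23, Pdk4 0.74, Acot1 0.66 and Bdh1 -0.09. Without WT replicate 1 Cpt2 was -0.00209, and without KO replicate 2 Acadvl was -0.01. Of 521 values of the 29 named genes under alternatives, 520 kept direction and side of the threshold. None of the 29 passed in the main fit. The minimum level, the replicate block and the prior leave a fold change as it was, so this count is a weak measure of stability. Ppara has no value with the minimum of 5, which it misses, and the constant prior does not enter the scores.

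Same-numbered samples did not deviate together (correlations -0.158, -0.0312, -0.118 and 0.0663), and the other pairs lay between -0.166 and 0.268. Such values cannot show whether same-numbered samples shared a day or litter, and the main fit used no pairing. With a replicate block 6 genes and 0 members passed, and Pex5l had an adjusted p of 0.529. Depth limits Ppara and Abcd2, at a few reads in most libraries.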
